A study of Homo sapiens with 12 samples.

Results

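The genes described here encode the proteasome and its helpers in Huh7, a line of human hepatocellular carcinoma cells. They were chosen by name, as every gene whose symbol starts with PSMA to PSMG followed by a number and for which 3 or more of the 12 samples held 10 counts or more. That rule gave 45 genes of the 17092 that passed the same filter. Before the filter, 48 symbols in 64 rows of the count table matched the name. They comprise 16 genes of the core particle, 17 of the base and lid of the regulatory particle, 7 assembly genes, and 5 activators and inhibitors.

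The cells were seeded and cultured, and were then kept for 6 h in 1 of 4 conditions with 3 samples each. Untreated cells received medium only. The others received bare graphene oxide (GO) at 400 µg/mL, GO conjugated with the ginsenoside Rg3 (GO–Rg3) at 400 µg/mL, or the conjugate loaded with doxorubicin (GO–Rg3–DOX) at 100 µg/mL. Doxorubicin alone was not analysed here, so the part of the drug and the part of its carrier cannot be told apart. The labels call the samples replicates without saying whether they were separate cultures, so p-values measure only the spread between these samples, which may be technical.

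The proteasome degrades proteins that carry a ubiquitin chain. Its core particle is a barrel in which rings of alpha subunits, the gate, enclose rings of beta subunits, some of which hold the cutting sites. A regulatory particle caps the barrel. Its base contains ATPases that unfold the substrate, and its lid removes the ubiquitin. Dedicated chaperones put the rings together and then leave, and in liver cells as elsewhere most subunits are made in fixed proportions. Interferon replaces some catalytic subunits with inducible ones that favour the production of peptides for antigen presentation.

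Total counts per sample ranged from 27802871 to 38877420. Mitochondrial genes took 5.31 to 6.28% of the counts in untreated cells, 12.1 to 24.1% in the GO samples, 6.89 to 7.42% in the GO–Rg3 samples and 12.8 to 19.4% in the GO–Rg3–DOX samples. Replicate 1 was highest in the GO group (24.1%) and in the GO–Rg3–DOX group (19.4%), and both samples stood apart from the other two of their group. All 8 hepatocyte markers passed the filter, and their summed level was 20680.0 to 20880.0 CPM in untreated cells, 12670.0 to 15590.0 after GO, 15840.0 to 19190.0 after GO–Rg3 and 26480.0 to 31500.0 after GO–Rg3–DOX. On the log2 scale AFP fell by 1.07 and ALB fell by 0.67 after GO, where HNF4A rose by 0.63, and HNF4A fell by 1.02 after GO–Rg3–DOX, where ALB rose by 0.57. PTPRC and CD3E of leukocytes, PECAM1 of endothelial cells and DCN of fibroblasts did not pass the filter. The summed level of the leukocyte markers, 1 of 3 past the filter, was 0.836 to 1.56 CPM in the other groups and 2.88 to 3.51 CPM after GO–Rg3–DOX, and that of the fibroblast markers, 2 of 3 past the filter, 0.783 to 1.39 and 2.40 to 3.38 CPM. The endothelial marker CDH5, 1 of 2 past the filter, was at 0.0268 to 0.352 and 0.431 to 0.536 CPM. The part of all these markers in the results was not tested. Levels are given as TMM-normalised CPM (counts scaled to a common library size), mean ± SD with n = 3. In bulk RNA, fewer cells of a kind and less RNA per cell cannot be told apart. Genes were called overexpressed or under-expressed at an adjusted p below 0.01 in the quasi-likelihood test of edgeR, adjusted by Benjamini-Hochberg over the 17092 genes. The 3 treatments were compared with the same untreated samples.

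In untreated cells the subunits of the core differed widely in level per transcript length. PSMB4, a structural beta subunit, was at 461 ± 8.49 CPM per kb, PSMA7, an alpha subunit, at 362 ± 4.81, and the catalytic subunit PSMB6 at 316 ± 3.69. PSMD2, a scaffold protein of the base, was at 304 ± 1.80 CPM per kb and had the largest CPM of all members. At the other end of the core, the alpha subunits PSMA1, PSMA6 and PSMA2 were at 21.1, 8.47 and 4.596 CPM per kb. These 3 are the alpha genes whose exons share sequence with another gene on the same strand, over 26.7%, 14.1% and 17.2% of their length. PSMB10 (39.4%) and PSMD9 (14.9%), at 1.69 and 1.29 CPM per kb, also share exons on the same strand. PSMB5 (7.04%), PSMF1 (1.51%) and PSMC2 (1.30%) share smaller parts on the same strand. Whether the counting assigned shared reads is not given in the sources used here, so the levels of all these genes are uncertain. The lengths are those of single reference transcripts, which for PSMA4, PSMB2 and PSMC1 exceed 4 kb and lower their values per kb.

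Some members had almost no counts. PSMB8 and PSMB9, the inducible counterparts of PSMB5 and PSMB6, each appear in 8 rows, with 3 and 6 counts summed over rows and samples. Reads from such repeated gene copies can be left uncounted, so these values do not show how much of either gene was expressed. PSMA8, an alpha subunit known from the testis, had 0 counts in every sample. The second rows of PSMA1 and PSMA2 had at most 4 counts and are not used.

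After GO, 17 of the 45 genes were under-expressed and 0 were overexpressed. Over all 17092 genes, 15.4% were lower and 12.1% higher at the same threshold. The median log2 fold change was −0.35 over the proteasome genes and 0.01 over all genes, and 38 of the 45 were below 0. At an unadjusted p below 0.05, 29 were lower and 3 higher, against 50.7% of all genes in either direction, and DESeq2 called 18 lower and 0 higher. Only the lid gene PSMD14 also passed the study's fold threshold, an absolute log2 fold change above 1, against 2.62% of all genes in that direction and 3.84% in the other. The samples of the 2 groups did not overlap for 35 of the 45 genes, against 58.5% of all genes.

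**Figure D1:**
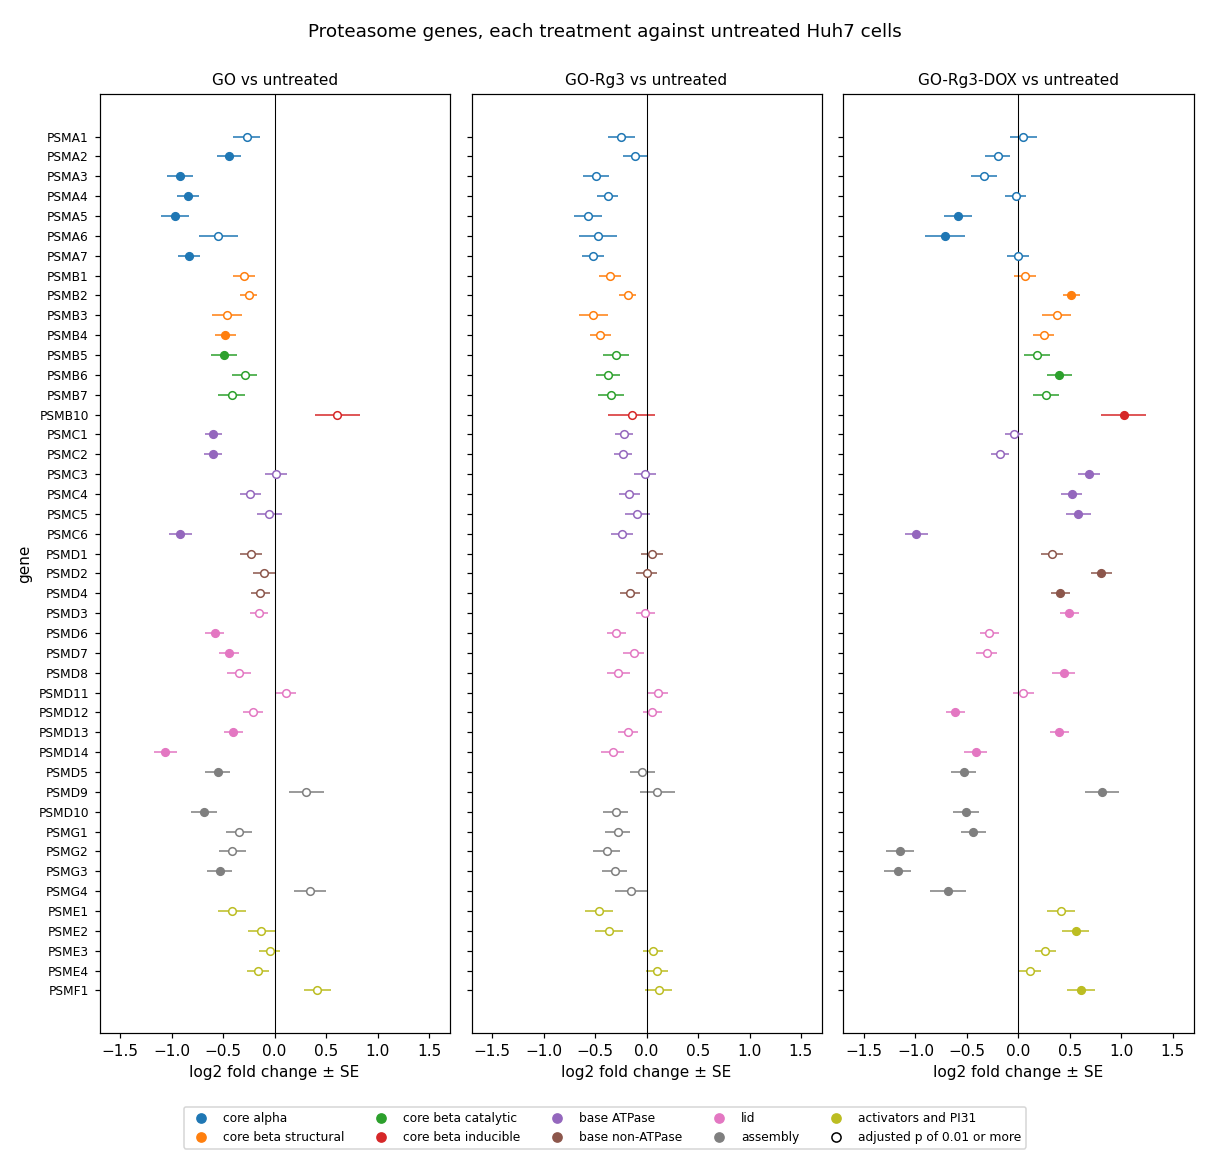
Log2 fold change ± standard error of 44 proteasome genes (rows, coloured by role) for each treatment against untreated Huh7 cells, with TMM scaling. Filled symbols have an adjusted p below 0.01. After GO the filled symbols all lie below 0, after GO–Rg3 there are none, and after GO–Rg3–DOX they lie on both sides, a split that turns to 1 higher and 20 lower when libraries are scaled by their totals. PSMB11 lies outside the axis and is not drawn.

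Of the alpha ring, 5 of 7 genes fell (PSMA2, PSMA3, PSMA4, PSMA5 and PSMA7), with a median log2 fold change of −0.83. The call of PSMA2 held by DESeq2, with RLE scaling and with the replicate block. It was lost with an offset for transcript GC content (−0.17, adjusted p = 0.22 by edgeR), with libraries scaled by their totals, with no filter, with 10 counts in every sample, on the 6 samples alone and with any 1 of these left out. PSMA5 (chromosome 1 from 109941664 to 109969070, minus strand, GRCh37) was at 205, 215 and 218 CPM in untreated cells and at 134, 99.3 and 92.2 CPM after GO. PSMA3 (chromosome 14 from 58711561 to 58738730, plus strand) was at 150.1, 158 and 149.7 CPM in untreated cells and 90.0, 78.7 and 73.3 CPM after GO. The groups did not overlap for either gene, and GO replicate 1 was the highest of its group for both. PSMA5 fell by 0.97 (SE 0.14, adjusted p = 8.5e-05) and PSMA3 by 0.92 (SE 0.13, adjusted p = 7.9e-05) on the log2 scale. PSMA4 fell by 0.84 and PSMA7 by 0.83, with standard errors of 0.10 and 0.11. PSMA1 and PSMA6 did not pass (log2 fold changes −0.27 and −0.55, adjusted p = 0.11 and 0.029).

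Of the beta ring, 2 of 9 genes fell. The proteolytic subunit PSMB5, which carries the chymotrypsin-like site, was at 209, 220.3 and 223 CPM in untreated cells and at 185, 142 and 138 CPM after GO. It fell by 0.49 (SE 0.13, adjusted p = 0.0059), a call that was lost without GO replicate 2, GO replicate 3 or any 1 untreated sample. PSMB6, the caspase-like subunit, was at 257, 262 and 262 CPM and at 261, 192 and 185 CPM, so that GO replicate 1 lay among the untreated samples. For PSMB7, the trypsin-like subunit, the levels were 179, 188 and 186 CPM in untreated cells and 175, 124 and 115 CPM after GO. Neither PSMB6 (log2 fold change −0.29, adjusted p = 0.058) nor PSMB7 (−0.42, adjusted p = 0.017) passed. PSMB4 fell by 0.48 (adjusted p = 0.0019), while the other structural subunits PSMB1, PSMB2 and PSMB3 had log2 fold changes of −0.30, −0.25 and −0.46 that did not pass. Without GO replicate 1, both PSMB6 and PSMB7 passed, with log2 fold changes of −0.46 and −0.62. PSMB10, the inducible counterpart of PSMB7, was at 1.75, 1.57 and 1.65 CPM in untreated cells and 3.02, 2.11 and 2.52 CPM after GO, a log2 fold change of 0.61 (SE 0.22, adjusted p = 0.034). All GO samples lay above the untreated samples, on counts that ranged from 28 to 89 over the 12 samples.

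In the regulatory particle, the ATPases PSMC1, PSMC2 and PSMC6 fell, and PSMC3, PSMC4 and PSMC5 did not pass. PSMC6 went from 153 ± 1.66 to 81.1 ± 6.61 CPM, a fall of 0.92 on the log2 scale (SE 0.11, adjusted p = 2.8e-05). PSMC3 stood at 300.3 ± 4.03 CPM before and 303 ± 41.4 CPM after GO, a log2 fold change of 0.01 (SE 0.11, adjusted p = 0.93). The ATPases of one ring thus had unlike values, with log2 fold changes from −0.92 to 0.01. PSMC1 shares 76.1% of its exon length with NRDE2 on the opposite strand. The scaffolds PSMD1 and PSMD2 and the ubiquitin receptor PSMD4 had log2 fold changes of −0.23, −0.10 and −0.14, none past the threshold.

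Within the lid, 4 of 8 genes fell: PSMD6, PSMD7, PSMD13 and PSMD14. PSMD14 (chromosome 2 from 162164936 to 162268228, plus strand) encodes the deubiquitinating enzyme of the lid. It was at 245, 252 and 244.5 CPM in untreated cells and at 114, 128 and 113 CPM after GO. All GO samples were below every untreated sample, and PSMD14 fell by 1.06 on the log2 scale (SE 0.11, adjusted p = 9.5e-06). PSMD7, which forms a pair with PSMD14, fell by 0.44, and the scaffold subunits PSMD6 and PSMD13 by 0.58 and 0.40. The scaffold subunits PSMD3, PSMD8, PSMD11 and PSMD12 did not pass, with log2 fold changes of −0.15, −0.35, 0.11 and −0.21.

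Among the assembly genes, PSMD5 and PSMD10, chaperones of the base, and PSMG3, a chaperone of the alpha ring, fell by 0.55, 0.69 and 0.53 (adjusted p = 0.002, 0.0006 and 0.0031). PSMG1 and PSMG2, which act as a pair on the alpha ring, were at −0.35 and −0.41 on the log2 scale (adjusted p = 0.033 and 0.019). PSMG4, the partner of PSMG3, was at 0.35 and PSMD9, a further base chaperone, at 0.31, and neither passed. Of the activators and inhibitors, 0 of 5 passed in either direction by edgeR or DESeq2, and 2 had an unadjusted p below 0.05. PSME1, an interferon-inducible activator subunit, was at 63.2, 67.0 and 69.6 CPM in untreated cells and 62.7, 44.6 and 42.8 CPM after GO. Its partner PSME2 was at 113, 116 and 117.36 CPM and at 132, 90.0 and 95.1 CPM. Replicate 1 was the highest of the GO samples for both partners, above the untreated samples in the case of PSME2. PSME3, a nuclear activator, was at 235, 232 and 226 CPM and then 249, 211 and 210.4 CPM, and PSME4, a large nuclear activator, at 147, 155 and 147 CPM and then 118.99, 144 and 138 CPM. The proteasome inhibitor gene PSMF1 had a log2 fold change of 0.41 (SE 0.13, adjusted p = 0.021).

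GO replicate 1 was closest to the untreated cells. Over the 44 genes other than PSMB11, its median log2 difference from the untreated mean was −0.11, against −0.44 and −0.53 in GO replicates 2 and 3. It was also the sample with 24.1% mitochondrial counts, against 12.1% and 14.8%, and the part of that share in the result was not tested. Without it, 25 genes were lower and 0 higher. Without GO replicate 3 or untreated replicate 3, 11 were lower, and PSMA2, PSMB4, PSMB5, PSMD7, PSMD13 and PSMG3 did not pass.

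**Figure D2:**
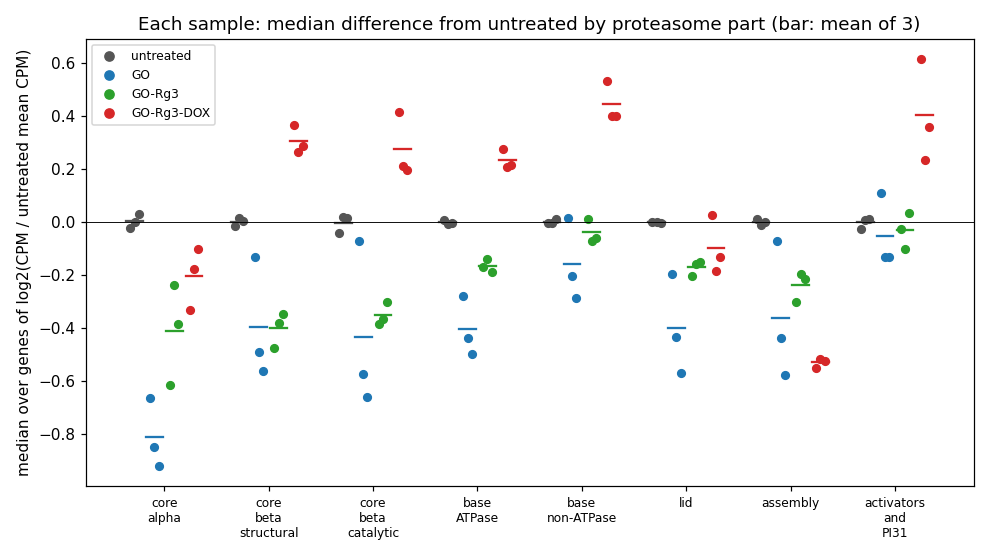
Median over the genes of each proteasome part of log2 of a sample's CPM over the untreated mean (vertical axis), for 8 parts (horizontal axis). Points are samples, coloured by group, and bars are the mean of 3. The alpha subunits lie lowest after GO, between −0.92 and −0.67. The assembly genes lie lowest after GO–Rg3–DOX, between −0.55 and −0.52, and the structural and catalytic beta subunits of that group lie above 0 with TMM scaling, whereas their median log2 fold changes are below 0 with library totals. The inducible beta genes are not drawn.

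The GO–Rg3 group received the carrier as prepared with Rg3, which differs from bare GO in flake size and charge as well. Against untreated cells, 0 of the 45 genes passed in either direction by edgeR, where 0.164% of all genes passed. At an unadjusted p below 0.05, 24 genes were lower and 0 higher, while 13.4% of all genes were below that value in either direction. DESeq2 called 3 genes lower, the alpha subunits PSMA5 and PSMA7 and the beta subunit PSMB4. The median log2 fold change was −0.23, against −0.00 over all genes, and 36 of the 45 genes were below 0. Levels did not overlap between the groups for 31 genes, where 25.8% of all genes had groups without overlap.

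The alpha subunits had a median of −0.47 over 7 genes. PSMA5 was at 122, 163 and 145 CPM after GO–Rg3, below the untreated samples, with a log2 fold change of −0.57 (SE 0.14, adjusted p = 0.051). PSMA7 had a log2 fold change of −0.52 (SE 0.11, adjusted p = 0.027), the smallest adjusted p of the 45 genes. PSMB4 was at −0.45 (adjusted p = 0.044). The structural subunit PSMB3 was at −0.52 (adjusted p = 0.089). These values were below the untreated level in each sample but outside the threshold set for a call.

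The catalytic subunits were also lower in every GO–Rg3 sample than in any untreated sample. PSMB5 was at 185, 169 and 177 CPM, PSMB6 at 197, 193 and 211 CPM, and PSMB7 at 141, 152 and 143 CPM. Their log2 fold changes were −0.30, −0.38 and −0.35, with adjusted p of 0.30, 0.13 and 0.23. The inducible subunit PSMB10 was at 1.84, 0.90 and 1.6985 CPM, which overlapped the untreated samples, and its log2 fold change of −0.15 turned to 0.09 without GO–Rg3 replicate 2.

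The base ATPases had a median of −0.19, the lid genes of −0.15 and the assembly genes of −0.28, with 3, 3 and 4 genes at an unadjusted p below 0.05. PSMD14 was at 174, 218 and 198 CPM (log2 fold change −0.33, adjusted p = 0.17). PSMD2 was at 887 ± 69.6 CPM and 886 ± 5.24 CPM in untreated cells, and its log2 fold change was 0.00 (SE 0.10). Of the activators, PSME1 was at 47.4, 48.7 and 49.1 CPM and PSME2 at 82.1, 98.5 and 88.5 CPM, both below the untreated samples (adjusted p = 0.11 and 0.22). PSME3 was at 239, 248 and 236 CPM and PSME4 at 147, 179 and 157 CPM, with log2 fold changes of 0.06 and 0.10.

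The carriers with and without Rg3 were compared directly at the same dose of 400 µg/mL. They differ in more than Rg3. The paper reports larger and thicker flakes and a weaker negative charge for the conjugate, which was prepared with acid and heat. Neither Rg3 alone nor GO prepared in that way without Rg3 was among the samples. The part of Rg3 and the part of these differences therefore cannot be told apart. Of the 45 genes, 6 were higher in GO–Rg3 than in GO and 0 were lower, against 7.33% higher and 6.25% lower among all genes. At an unadjusted p below 0.05, 17 were higher and 3 lower, against 39.8% of all genes, and DESeq2 called 8 higher and 0 lower. None passed the study's fold threshold, which 0.702% of all genes passed upward and 2.07% downward. The carriers did not overlap for 17 genes, against 39% of all genes. The 6 genes were the alpha subunit PSMA4, the ATPases PSMC1, PSMC2 and PSMC6, the lid enzyme PSMD14 and the base chaperone PSMD5. With the GC offset 8 genes were higher, without PSMA4 and PSMC2, and with library totals 11, without PSMD5. The median log2 difference was 0.07, against −0.02 over all genes.

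PSMD14 was 0.73 higher on the log2 scale in GO–Rg3 than in GO (SE 0.11, adjusted p = 0.0004). PSMC6 was at 73.9, 86.9 and 82.6 CPM after GO and at 113, 147 and 129 CPM after GO–Rg3, a log2 difference of 0.68 (SE 0.11, adjusted p = 0.00064). PSMD5 was at 37.2, 52.9 and 50.2 CPM after GO and at 59.9, 73.4 and 67.2 CPM after GO–Rg3, a log2 difference of 0.51 (SE 0.12, adjusted p = 0.0062). For all 3 genes the groups did not overlap. PSMA5 and PSMA3 differed by 0.40 and 0.43, with adjusted p of 0.041 and 0.023, and their levels overlapped. The catalytic subunits differed little: PSMB5 by 0.19 (SE 0.13), PSMB6 by −0.09 (SE 0.12) and PSMB7 by 0.07 (SE 0.13). PSMB10 was 0.75 lower in GO–Rg3 on the log2 scale (SE 0.22), with an adjusted p of 0.02. PSME1, PSME2 and PSME3 differed by −0.05, −0.23 and 0.11 and PSME4 by 0.26 (adjusted p = 0.08), so no activator passed. Fitted on the 6 samples compared alone, 1 gene passed, PSMD14. Without GO replicate 3, GO–Rg3 replicate 2 or GO–Rg3 replicate 3, 2 genes were higher, PSMC6 and PSMD14, and without GO replicate 2 there were 3, with PSMD5.

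**Figure D3:**
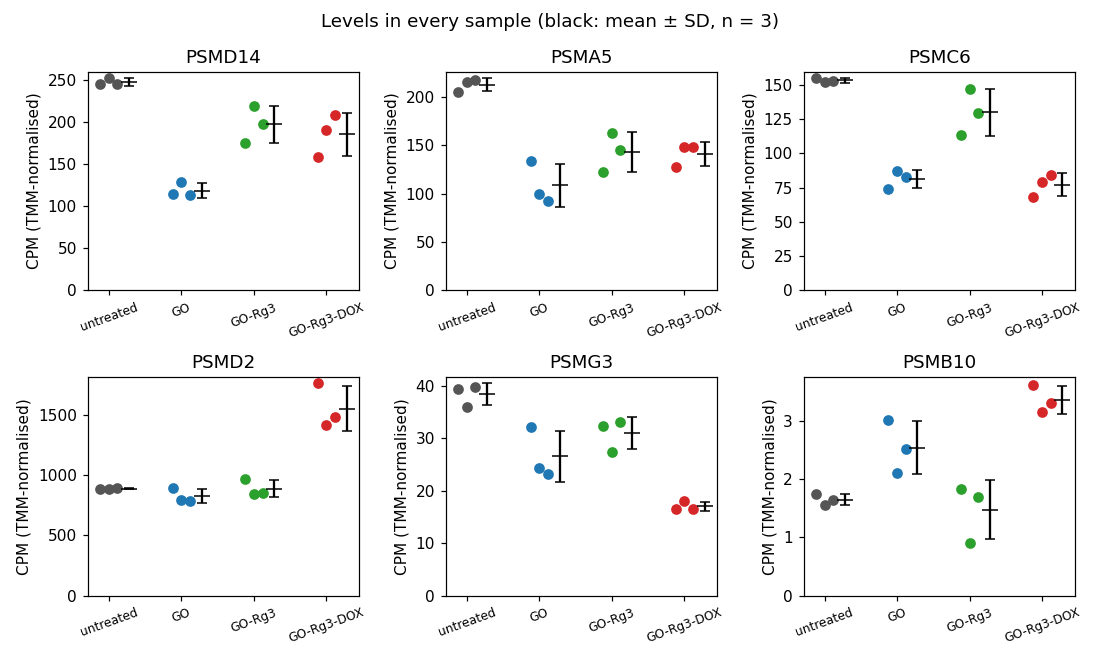
TMM-normalised CPM (vertical axes, from 0) of 6 genes in every sample, by group, with mean ± SD (n = 3) in black. PSMD14 was lowest after GO (113 to 128 CPM). PSMC6 was low after GO and GO–Rg3–DOX, PSMG3 was lowest after GO–Rg3–DOX (16.5 to 18.0 CPM), and PSMD2 and PSMB10 were highest there with TMM scaling.

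After GO–Rg3–DOX proteasome genes moved in both directions. With TMM scaling, 15 of the 45 were overexpressed and 11 under-expressed. One of the 15 is PSMB11, which passed the filter only through this group and so had to differ, and without it 14 of 44 were higher. These counts stand against 25.5% higher and 30.5% lower, 56% together, among all genes. At an unadjusted p below 0.05 there were 20 and 14, against 69.5% of all genes, DESeq2 called 20 and 11, and the groups did not overlap for 39 genes, against 75.3%. The median log2 fold change of the 45 genes was 0.11, against −0.06 over all genes. Without PSMB11 the median was 0.09. The groups then did not overlap for 38 of 44 genes, and 33 had an unadjusted p below 0.05. Rises and falls occurred together in the base and in the lid, and 6 of the 7 assembly genes fell, 3 of them with an offset for GC content (median −0.06). The direction of the rises depended on the scaling. With library totals in place of TMM the median over all genes moved to −0.47, and 1 proteasome gene other than PSMB11 was higher (PSMD2) and 20 lower. All 11 falls were among those 20. With PSMB11 included, the proteasome median was 0.17 above that of all genes with TMM and 0.16 above it with library totals. It was below that of all genes (−0.0245) with no filter on low counts, where 12 genes were higher and 13 lower.

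Beside PSMB11, 1 gene was above the study's fold threshold upward, PSMB10, and 2 downward, PSMG2 and PSMG3, against 12.6% and 18.2% of all genes. PSMG3 (chromosome 7 from 1606968 to 1610641, minus strand) was at 39.4, 35.964 and 39.6 CPM in untreated cells and at 16.5, 18.0 and 16.5 CPM after GO–Rg3–DOX. PSMG2 (chromosome 18 from 12658042 to 12728944, plus strand) was at 60.1, 60.5 and 57.4 CPM and then at 27.975, 26.6 and 25.6 CPM. All treated samples were below every untreated sample for both genes. PSMG3 fell by 1.17 (SE 0.13, adjusted p = 1e-06) and PSMG2 by 1.15 (SE 0.13, adjusted p = 1.8e-06). Their partners PSMG4 and PSMG1 fell by 0.68 and 0.44 (adjusted p = 0.0024 and 0.0056), and the base chaperones PSMD5 and PSMD10 by 0.53 and 0.51 (adjusted p = 0.0011 and 0.0022). PSMD9, also a base chaperone, was the exception. It was at 3.47, 3.49 and 3.58 CPM in untreated cells and 6.18, 6.25 and 6.10 CPM after treatment, a rise of 0.81 with TMM (SE 0.17, adjusted p = 0.00049) that did not pass with library totals (0.40).

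In the core, 3 of the 8 beta genes other than PSMB11 rose and 0 fell with TMM, and 5 had an unadjusted p below 0.05. DESeq2 called 5 higher and 0 lower, the GC offset left 3 and 0, and library totals gave 0 and 1. Of the 7 alpha genes, 2 fell and 0 rose with TMM, and DESeq2 gave the same counts, with 3 lower and 0 higher at an unadjusted p below 0.05. With library totals 5 alpha genes fell, whereas with the GC offset 0 fell and 2 rose, PSMA1 and PSMA4, and the alpha median was 0.15. PSMB5 was at 290.3, 214 and 237 CPM after GO–Rg3–DOX, overlapping the untreated samples, and did not pass (log2 fold change 0.18, adjusted p = 0.21). PSMB6 was at 373, 327 and 329 CPM, above the untreated samples, and rose by 0.40 (SE 0.12, adjusted p = 0.0076) with TMM, a value that became −0.03 with library totals. PSMB7 was at 241, 214 and 212 CPM (log2 fold change 0.27, adjusted p = 0.078). The structural subunit PSMB2 rose from 376 ± 8.41 to 537 ± 32.4 CPM, by 0.51 (SE 0.08, adjusted p = 5.6e-05), and was at 0.09 with library totals. Among the alpha genes, PSMA5 was at 127.02, 148 and 149 CPM and fell by 0.59 (SE 0.14, adjusted p = 0.0014), and had a log2 fold change of −0.0027 with the GC offset. PSMA6 fell by 0.71 (SE 0.19, adjusted p = 0.004). PSMA4 and PSMA7 were within 0.03 of 0 with TMM.

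Of the beta genes listed as inducible, only PSMB10 and PSMB11 could be compared, since PSMB8 and PSMB9 did not pass the filter. Both were low but higher than in untreated cells with TMM scaling, which for PSMB11 was fixed by the filter. PSMB10 was at 3.63, 3.16 and 3.32 CPM, from 87 to 88 counts per sample, and rose by 1.02 (SE 0.22, adjusted p = 0.00064). With library totals its log2 fold change was 0.60 and did not pass. PSMB11, known as a thymus-specific subunit, passed the filter only through this group. It had 11, 14 and 10 counts after GO–Rg3–DOX, 1 count in GO replicate 1 and 0 counts in all the others. With TMM scaling its level of 0.446 ± 0.0613 CPM was at least 4.65-fold higher than 3 counts in an untreated library. That bound covers counting error only. It depends on the TMM factors, 0.7375 to 0.8627 in this group and 1.0884 to 1.1013 in untreated cells. It was not computed with library totals.

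In the base, the ATPases PSMC3, PSMC4 and PSMC5 rose by 0.68, 0.52 and 0.58 with TMM (adjusted p = 5e-05, 0.00037 and 0.00066), and had log2 fold changes of 0.26, 0.09 and 0.15 with library totals, none of which passed. PSMC6 (chromosome 14 from 53173896 to 53195308, plus strand) was at 155, 152 and 153 CPM in untreated cells and at 67.9, 79.0 and 84.1 CPM after treatment. It fell by 0.99 (SE 0.11, adjusted p = 1.6e-06), and the ATPases of this ring moved in both directions. PSMC1 and PSMC2 did not pass (log2 fold changes −0.04 and −0.18). PSMD2, chosen for display after its values were seen, was at 883, 884 and 892 CPM in untreated cells and at 1760, 1410 and 1477 CPM after GO–Rg3–DOX. It rose by 0.81 (SE 0.11, adjusted p = 7.1e-06) with TMM and by 0.38 with library totals, past the threshold in both. The ubiquitin receptor PSMD4 rose by 0.41 with TMM and was at −0.01 with library totals.

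In the lid, 3 of 8 genes were higher and 2 lower with TMM, and 1 and 0 with the GC offset. PSMD3, PSMD8 and PSMD13, scaffold subunits, rose by 0.49, 0.44 and 0.40 with TMM (adjusted p = 0.00021, 0.0034 and 0.0019), and did not pass with library totals (0.07, 0.01 and −0.02). PSMD12, also a scaffold subunit, fell by 0.61 (SE 0.10, adjusted p = 4.5e-05). PSMD14 was at 158, 190.5 and 208 CPM and fell by 0.42 (SE 0.11, adjusted p = 0.0041).

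Of the activators, PSME2 and the inhibitor gene PSMF1 rose by 0.56 and 0.61 with TMM (adjusted p = 0.0017 and 0.00086), and were at 0.13 and 0.18 with library totals. PSME2 was at 191, 155 and 162 CPM after treatment, and PSME1 at 102.01, 78.3 and 85.5 CPM, all above the untreated samples. PSME1 did not pass (log2 fold change 0.41, adjusted p = 0.014). PSME3 was at 312, 256 and 262 CPM and PSME4 at 180.21, 155 and 150.45 CPM, with log2 fold changes of 0.26 and 0.11 that did not pass and that became negative with library totals.

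GO–Rg3–DOX replicate 1, the sample with 19.4% mitochondrial counts, had the highest median log2 difference from untreated cells, 0.25 against 0.04 and 0.11. Without it, 12 genes were higher and 8 lower, and PSMB6, PSMD8 and PSME2 among the rises and PSMA6, PSMD10, PSMD14 and PSMG1 among the falls did not pass. The call of PSMB6 was lost with any 1 of the 6 samples left out. Without untreated replicate 3, 7 genes were lower, and PSMA6, PSMD14, PSMG1 and PSMG4 did not pass. Summed over the 45 genes, the level was 8562 ± 15.3 CPM in untreated cells, 6889 ± 719.5 CPM with GO, 7550 ± 51.2 CPM with GO–Rg3 and 10330 ± 643 CPM with GO–Rg3–DOX. With library totals the order of untreated cells and GO–Rg3–DOX turned, with 9362 ± 69.2 in untreated cells, 6880 ± 184 with GO, 8414 ± 115 with GO–Rg3 and 8430 ± 257 with GO–Rg3–DOX. The sums are set side by side only, and the dose of GO–Rg3–DOX differed.

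Fold changes moved with the GC content of the transcripts. Across the 44 proteasome genes with a value, Spearman's rho between GC content and log2 fold change was 0.52 for GO, 0.13 for GO–Rg3 and 0.62 for GO–Rg3–DOX. Across 16622 genes it was 0.44, 0.20 and 0.37. For GO–Rg3 against GO it was −0.60 over the proteasome genes and −0.44 over all genes. Genes share libraries and are not independent replicates, so these are descriptions. After GO–Rg3–DOX, 14 of the 15 rises, PSMB11 included, were among the 27 genes with at least 45% GC, and 9 of the 11 falls among the 17 with less. The other falls were PSMG3 (59.4% GC) and PSMG4 (53.2% GC). Over all 16622 genes with a value, 3621 rises were at or above 45% GC and 643 below it. Of the falls over all genes, 2404 were at or above 45% GC and 2695 below it. With an offset for GC content, 20 proteasome genes were higher and 4 lower after GO–Rg3–DOX. The 4 were PSMC6, PSMG2, PSMG3 and PSMG4, and 12 of the 15 rises were also called, without PSMB6, PSMD3 and PSMD8. After GO, 22 genes were lower and 0 higher with that offset, among them 15 of the 17, without PSMA2 and PSMC2.

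**Figure D4:**
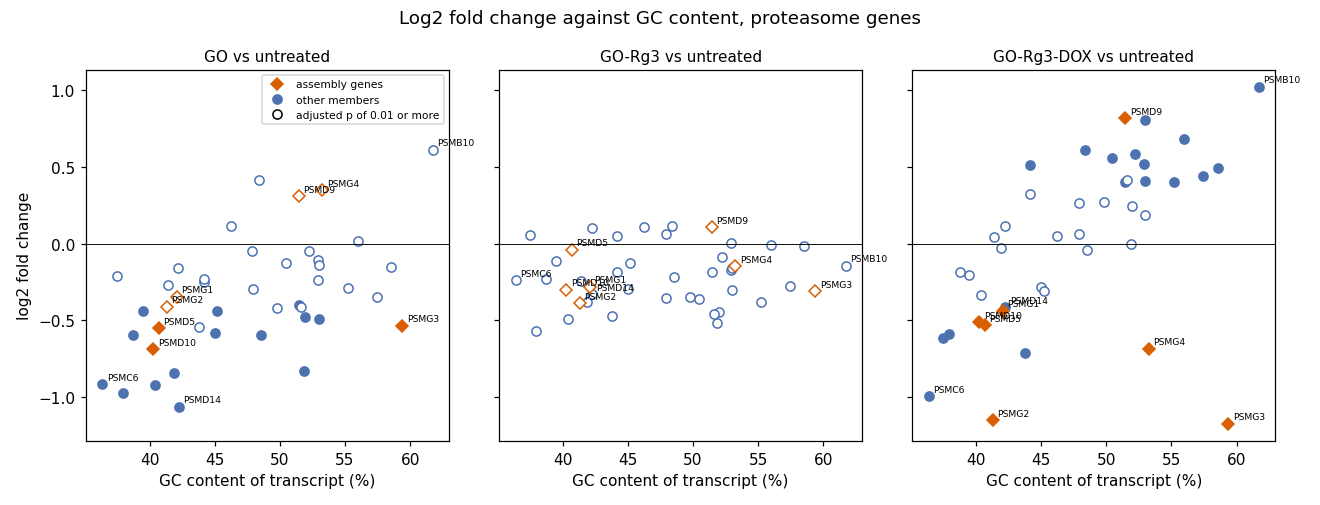
Log2 fold change with TMM scaling (vertical axis) against GC content of the reference transcript in percent (horizontal axis) for proteasome genes in 3 comparisons, without PSMB3 and PSMB11. Diamonds are assembly genes and filled symbols have an adjusted p below 0.01. After GO–Rg3–DOX the points run from low left to high right, apart from PSMG3 and PSMG4.

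Many proteasome promoters carry an antioxidant response element, the site bound by NFE2L1 and NFE2L2 with small MAF proteins. Its core letters, TGACNNNGC, were searched on both strands in the RefSeq promoter windows of 300 bases on GRCh38.p14, which held 39 of the 45 genes. PSMA7, PSMB1, PSMB6, PSMB7, PSMD4 and PSMG3 had no window. The letters occurred in 14 of the 39 genes (35.9%), against 16.1% of all 27305 genes, where a gene can have several windows. Counted by window they occurred in 14 of 47 (29.8%), against 13.3% of all 35116. Of the 14, after GO–Rg3–DOX 5 were higher, 4 lower and 5 not past the threshold, and after GO 2 were lower. Among all 39 genes with a window, 13 were higher, 10 lower and 16 not past the threshold after GO–Rg3–DOX, and 15 were lower after GO. The 6 matches below are shown because they belong to genes that moved in opposite directions after GO–Rg3–DOX with TMM scaling. PSMC5, PSMD3 and PSMD9 were higher, and PSMD12, PSMD5 and PSMG2 lower. Capitals mark the matched letters, read 5′ to 3′ along the gene's strand, and in PSMC5 the match is on the other strand.
PSMC5, chr17:63827652-63827684, plus strand: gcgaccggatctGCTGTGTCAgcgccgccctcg
PSMD3, chr17:39980758-39980790, plus strand: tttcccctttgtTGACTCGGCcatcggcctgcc
PSMD9, chr12:121888676-121888708, plus strand: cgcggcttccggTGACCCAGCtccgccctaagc
PSMD12, chr17:67366722-67366754, minus strand: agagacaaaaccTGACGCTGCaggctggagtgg
PSMD5, chr9:120843036-120843068, minus strand: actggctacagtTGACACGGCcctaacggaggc
PSMG2, chr18:12658687-12658719, plus strand: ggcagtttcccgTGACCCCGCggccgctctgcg
The sites lay between 37 and 165 bases before the annotated start. The letters CCAAT, the core of a common promoter element, occurred in 19 of the 39 genes (48.7%) and 39.7% of all genes, or in 40.4% of the 47 windows and 34.6% of all windows. A match of letters is a description and not a bound site.

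The genes that control proteasome transcription were taken from a list of 9. After GO, NFE2L1, the activator that restores proteasome genes when the proteasome is blocked, rose by 0.81 and its partner MAFF by 0.60, and NFE2L2, the regulator of the oxidative stress response, fell by 1.10. After GO–Rg3–DOX, NFE2L1 and MAFF rose by 0.81 and 0.66 with TMM. NFE2L2 fell by 1.72, KEAP1, its inhibitor, by 2.02, and BACH1, its competitor, by 1.55. DDI2 and NGLY1, which process NFE2L1, fell by 0.56 and 0.49. NFE2L2, BACH1 and DDI2 share 13.6%, 17.9% and 18.0% of their exon length with other genes on the same strand. NFE2L2 shares 24.8% on the opposite strand as well, so the levels of these genes are uncertain. With TMM, 2 of the 9 rose and 1 fell after GO, and 2 rose and 5 fell after GO–Rg3–DOX. Among all genes, 27.6% and 56% passed in either direction. With library totals, 1 gene of this list rose and 1 fell after GO, and 1 rose and 5 fell after GO–Rg3–DOX. NFE2L1 thus rose with TMM in both comparisons, from 293 CPM to 513 CPM in each. After GO–Rg3, 0 of the 41 genes of all the lists passed by edgeR and 1 by DESeq2. At an unadjusted p below 0.05 there were 10, against 13.4% of all genes.

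Among 7 genes of interferon signalling and antigen processing, 4 rose and 0 fell after GO, and 5 rose and 0 fell after GO–Rg3–DOX with TMM. DESeq2 gave 4 and 0, and 5 and 0. Among all genes, 12.1% rose after GO and 25.5% after GO–Rg3–DOX. The counts include genes of very low level. NLRC5, among the 4, had at most 24 counts in any sample, and TAP1, among the 5, at most 21. IRF1, an interferon-response factor, rose by 0.44 and 0.65, TAP2, a peptide transporter subunit, by 0.68 and 1.30, and TAPBP, which loads peptides, by 1.48 and 1.54. The level of TAPBP was 30.5 CPM without treatment, 85.4 CPM and 88.6 CPM, and the inducible beta gene PSMB10 and the activator PSME2 were highest after GO–Rg3–DOX. Several rows carry the names TAP1, TAP2 and TAPBP, so their levels are uncertain in the same way as those of PSMB8. With library totals, 3 genes rose and 1 fell after GO, and 3 rose and 0 fell after GO–Rg3–DOX.

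Of 12 enzymes and shuttle proteins that dock on the proteasome, 6 fell and 1 rose after GO, and 4 fell and 2 rose after GO–Rg3–DOX with TMM. Among all genes 27.6% and 56% passed in either direction, so the second count is near the background. TXNL1, a thioredoxin-like protein of the regulatory particle, fell by 0.98 after GO and fell by 1.74 after GO–Rg3–DOX, and the shuttle RAD23B fell by 0.73 after GO. UBQLN2, another shuttle, and ZFAND5, a proteasome-binding zinc finger protein, fell by 2.03 and fell by 2.69 after GO–Rg3–DOX. With library totals 10 of the 12 fell and 1 rose there. RAD23B and TXNL1 were higher in GO–Rg3 than in GO, by 0.61 and 0.63, as was the deubiquitinase UCHL5, by 0.59. Of 9 genes for ubiquitin, its activating enzymes and the segregase, 2 fell and 0 rose after GO by edgeR. DESeq2 gave 2 and 1, and at an unadjusted p below 0.05 there were 3 and 2. After GO–Rg3–DOX, 2 fell and 3 rose with TMM, and 4 fell and 1 rose with library totals. UBA1, the main activating enzyme, and VCP, the segregase, rose by 1.09 and 0.62 with TMM after GO–Rg3–DOX. The subunits ADRM1 and SHFM1 and the chaperones POMP and PAAF1, whose symbols lie outside the name rule, did not pass in any comparison by edgeR. DESeq2 called 1 of the 4 higher after GO–Rg3–DOX.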

How the data were processed

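RNA of 12 Huh7 samples in 4 groups of 3 was analysed. Per the labels and the study's methods, the authors prepared stranded mRNA libraries, ran the NGI-RNAseq pipeline on GRCh37 and deposited raw counts per gene from featureCounts, without normalisation, for 63677 genes. The version of the counting tool, the annotation release and the strand option are not given in the sources used here, so reads of overlapping genes cannot always be told apart.

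A gene was kept if 3 or more samples had 10 or more counts, which left 17092. Counts were scaled by TMM and tested with edgeR 4.0.16 (R 4.3.3, quasi-likelihood, all 12 samples in one model, group only), with Benjamini-Hochberg adjustment over 17092 genes in each of 4 comparisons. The 3 treatments were set against medium alone, and the 2 carriers without drug against each other. GO–Rg3–DOX was not tested against the other carriers because the doses differ. The study used DESeq2. Total counts per sample were 27802871 to 38877420. A bound from a count of 0 was needed only for PSMB11, holds for TMM scaling and covers counting error only.

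The alternatives were RLE scaling, library totals, no filter (35604 genes), 10 counts in every sample (13706 genes), DESeq2 1.42.0, an offset for transcript GC content (loess, span 0.5, 16622 genes with a value), the replicate number as a block with and without that offset, the 6 samples compared alone, each sample left out, and other thresholds. On simulated counts with 200 of 17092 genes changed by a log2 fold of 1, GO against untreated recovered 150 with 4 false calls, and GO–Rg3 against GO recovered 152 with 2. The simulation gave all groups the same spread and no difference in composition. In the data, chi-square per degree of freedom between replicates was 2.976 to 5.836 in untreated cells and 13.15 to 155.3 after GO. The simulation checks the code only and does not give the rate of false calls in these data.

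Per-sample values are given for PSMB5, PSMB6, PSMB7 and PSMB10, PSME1 to PSME4, and the 3 largest rises and falls among genes that passed in each comparison. Genes of the related lists are named from those that passed, and some of them are not reported here. The members, lists and alternatives were chosen with earlier results of these data known, and the counts without PSMB11 and the summed level with library totals were added after seeing the data. Positions, transcript length, GC content and exon overlap came from GENCODE v44lift37, in which PSMB3 has no entry under its identifier. Python 3.11.15 with pandas 2.3.3 was used for the summaries.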

Additional observations from a re-analysis of the deposited data

How the results depend on the processing

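The number of proteasome genes lower after GO was 17, and 27 with library totals, 26 at an adjusted p below 0.05, 1 with the study's fold threshold, and 11 to 25 with 1 sample left out. Higher were 0, and 1 with no filter or on the 6 samples alone, and 2 at an adjusted p below 0.05. After GO–Rg3, 0 were lower, 3 by DESeq2, 5 with no filter and 2 at an adjusted p below 0.05, and the median of −0.23 was −0.18 with the GC offset, −0.16 on the 6 samples alone and −0.25 to −0.19 with 1 sample left out. After GO–Rg3–DOX, with PSMB11 included here and in the medians, 15 were higher and 11 lower. With library totals 2 and 20 were, with the GC offset 20 and 4, with the fold threshold 2 and 2, and with 1 sample left out 12 to 14 and 7 to 9. The median of 0.11 was −0.31 with library totals, 0.27 with the GC offset and 0.0323 with no filter, where the median of all genes was 0.0567. In GO–Rg3 against GO, 6 were higher and 0 lower. The higher count was 11 with library totals, 1 on the 6 samples alone, 0 with the fold threshold, 13 at an adjusted p below 0.05 and 2 to 8 with 1 sample left out. The lower count was 1 with no filter, 2 at an adjusted p below 0.05 and 0 to 1 with 1 sample left out. The median of 0.07 was 0.24 with library totals. The cause of these changes was not tested beyond the smaller number of samples or genes in a fit.

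Single genes also changed sign. With library totals after GO–Rg3–DOX, PSMB5 was −0.25, PSMB6 −0.0253, PSMB7 −0.16, PSME1 −0.0164, PSME3 −0.16 and PSME4 −0.31. After GO, PSME4 was 0.0360 with the GC offset and 0.0373 with the block as well. PSMB10 after GO–Rg3 was −0.15, and with 1 sample left out it ran from −0.32 to 0.0936. In GO–Rg3 against GO, PSMB6 was 0.11 with the GC offset, 0.12 with the block and the GC offset and 0.0811 with library totals, and ran from −0.18 to 0.0868 with 1 sample left out. PSME1 was 0.0805, 0.0902 and 0.12 in the same settings, and ran from −0.15 to 0.15. PSMB7 ran from −0.0410 to 0.28.

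Each group has samples numbered alike, but the labels do not say what they stand for. Deviations of same-numbered samples from their group mean correlated at 0.09 on average over 18 pairs (−0.02 to 0.25), against −0.05 over 36 other pairs. Deviations within a group sum to 0, which ties the second average to the first, so it adds no evidence of its own. The same number correlated best in 23 of 36 sets of a sample and another group. Of the 18 pairs 7, and of the 36 other pairs 1, were above 0.1. Since not every same-numbered pair was, the numbers were not taken as pairs, although 5 of the 12 samples correlated best with their own number in every other group, a hint from the data and not from the design. With the replicate block, 22 genes were lower and 1 higher after GO, 17 higher and 12 lower after GO–Rg3–DOX, and 6 higher and 1 lower in GO–Rg3 against GO. With the block and the GC offset together, 24 were lower and 1 higher after GO, 2 lower after GO–Rg3 (median −0.18), and 22 higher and 4 lower after GO–Rg3–DOX (median 0.26).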
